A study of Mus musculus with 6 samples.

Results

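DNA repair genes were examined in fibroblast cultures with an altered nuclear lamina gene. 42 genes of double-strand break, excision, mismatch and crosslink repair were taken by name, and 41 of them had a probe set annotated to exactly 1 gene symbol, out of 18193 such genes on the array. Xrcc2, a recombination gene, had none under this rule and is not analysed here. Each gene was read on the probe set with the highest mean over the 6 samples.

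The samples were 3 cultures of primary mouse fibroblasts labelled Delta9 (an allele of Lmna, the gene of lamin A and lamin C) and 3 labelled WT (wild type), each on its own Affymetrix array. Per the labels and the series design text, all came from sibling-derived lines of strain C57bl6X129S3/J, were taken at passage 3 and had been without serum for 72 hours, a treatment that slows proliferation. The sources used here do not state the zygosity of the allele or how many animals gave the lines, so p-values reflect only how far these samples spread, which may be technical. The cells are called adult in the labels and post-natal in the design text.

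DNA repair is divided among pathways that each handle one kind of lesion. Breaks of both strands are sensed by kinases and adaptor proteins and are then mended either by homologous recombination, which copies the sister chromatid and works in S and G2 phase, or by end joining, which works throughout the cycle. Damaged bases, bulky adducts, mispaired bases and crosslinks go to base excision, nucleotide excision, mismatch and Fanconi anaemia repair, and many genes of recombination and crosslink repair are transcribed mostly in dividing cells. Cells with defective lamin A are widely studied for altered damage signalling.

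The 41 repair genes differed little between Delta9 and WT. None passed an adjusted p of 0.05 (limma, Benjamini-Hochberg over all genes), where 0.0605% of all genes did, and 0 reached an unadjusted p under 0.05, where 10.6% of all genes did. Their differences, given throughout as Delta9 minus WT in log2 units, ran from -0.32 for Prkdc to 0.33 for Chek2, the latter a 1.26-fold difference. The median was 0.01, against -0.01 over all genes, with 24 genes higher and 17 lower, where 46.8% of all genes were higher. The lowest adjusted p of any repair gene was 0.53, for Blm.

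The intervals also show how large a difference in array signal these samples leave room for. They reflect only how far these samples spread, so they do not bound a change between animals. For 41 of 41 repair genes the 95% interval of the difference lay inside a 2-fold change either way, as it did for 88.4% of all genes. That of Xrcc5 passed this bound without WT replicate 1, reaching -1.03, and in the 4 arrays with more spike-in signal, reaching -1.09. For 30 of the 41 it lay inside a 1.5-fold change, as for 62.4% of all genes. These are intervals for single genes, and the median standard error (SE) of the 41 was 0.16, against 0.15 over all genes. The interval that reached lowest was that of Xrcc5, down to -0.80, and the one that reached highest was that of Lig1, up to 0.76. In 35 of 41 genes the difference was smaller than the SD between samples of one group, as it was in 11127 of all 18193 genes. Signals near the bottom of the scale can understate a change: the mean signals of the 41 ran from 3.51 for Xrcc3 to 7.54 for Ercc1, and the arrays' medians over all probe sets were 3.36 to 3.43.

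**Figure D1:**
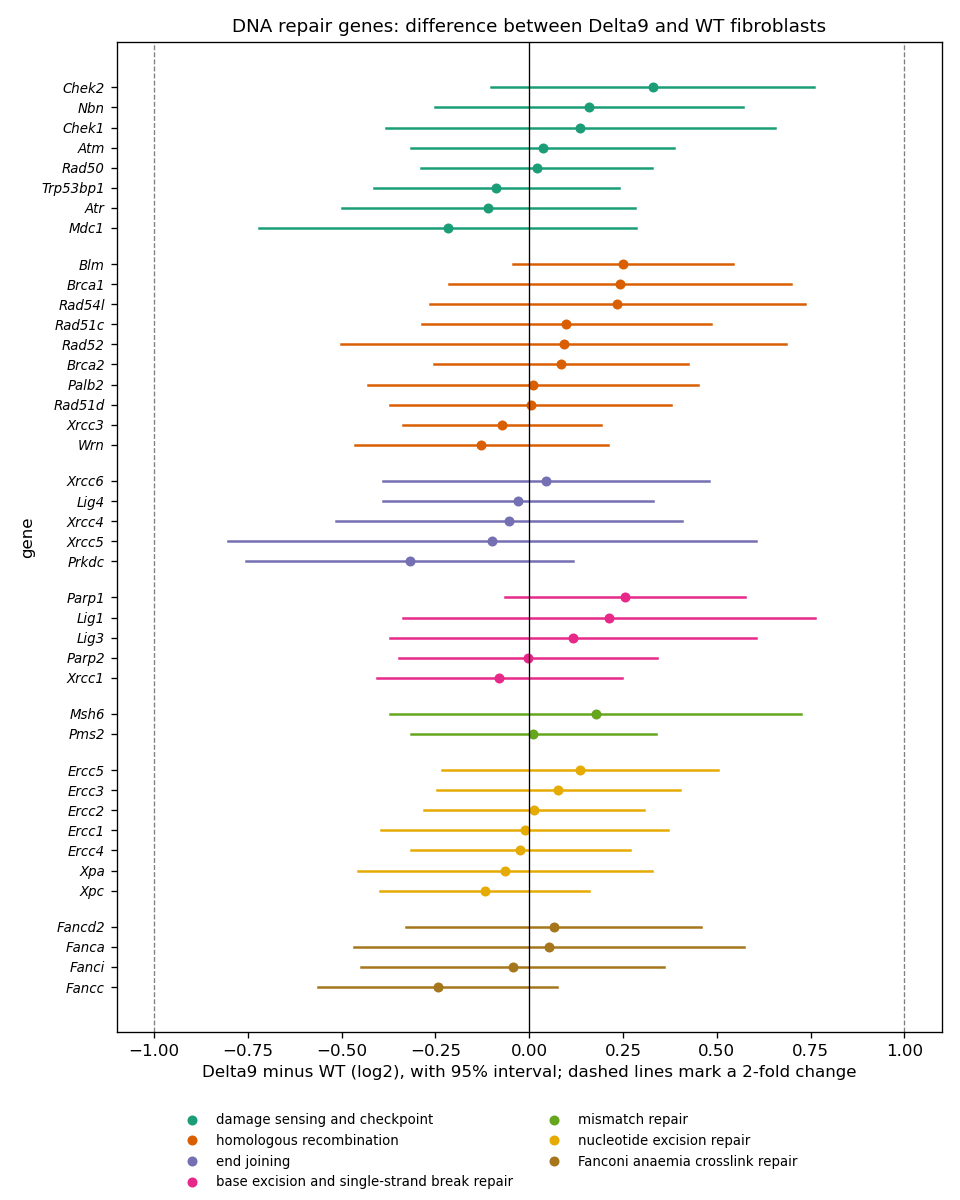
Difference between Delta9 and WT (log2, horizontal axis) for the 41 repair genes by pathway; points are limma estimates and bars are 95% intervals, n = 3 per group. All 41 intervals lie between the dashed lines of a 2-fold change and all 41 include 0.

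The groups did not overlap for 4 of the 41 genes, or 9.76%, against 17.3% of all genes. Blm and Parp1 were higher in 3 of 3 Delta9 samples than in any WT sample, as 7.27% of all genes were. Fancc and Xpc were lower in 3 of 3, as 9.99% of all genes were.

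Blm encodes a RecQ helicase that dissolves recombination intermediates. In replicates 1 to 3, in that order here and below, Delta9 read 4.88, 4.90 and 4.73, and WT read 4.52, 4.61 and 4.63. All Delta9 values lay above the WT values. The difference was 0.25 (SE 0.12, interval -0.04 to 0.54, adjusted p 0.53).

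Parp1, the polymerase that marks strand breaks with poly(ADP-ribose), read 7.60, 7.54 and 7.39 in Delta9 and 7.31, 7.34 and 7.12 in WT. The groups were separated by a narrow gap between Delta9 replicate 3 and WT replicate 2. The difference was 0.25 (SE 0.14, interval -0.07 to 0.57, adjusted p 0.55). Its 3 other probe sets had the same sign, at 0.22, 0.29 and 0.18, and on the last pair of these the groups overlapped.

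Fancc, a subunit of the Fanconi anaemia core complex, read 4.76, 4.72 and 4.59 in Delta9 and 4.90, 4.82 and 5.08 in WT. Every Delta9 value was below every WT value, and the difference was -0.24 (SE 0.14, interval -0.56 to 0.07, adjusted p 0.56). A dimmer Fancc probe set, 1447632_at, was also lower in 3 of 3 Delta9 samples, at 3.82, 3.81 and 3.85 against 4.03, 4.21 and 4.37, a difference of -0.38 (SE 0.14) that did not pass either (adjusted p 0.50 over all probe sets). The third, 1442265_at, differed by -0.09 (SE 0.15).

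Xpc recognises helix distortions for nucleotide excision repair. Delta9 read 4.57, 4.65 and 4.60, and WT read 4.66, 4.78 and 4.74. Delta9 replicate 2 and WT replicate 1 were nearly level, so the groups barely separated. The difference of -0.12 (SE 0.12) was the smallest of the 4.

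Among the sensors and signal kinases of double-strand breaks, 5 of 8 genes were higher and 3 lower, with a median of 0.03. Chek2, a checkpoint kinase activated by Atm, had the largest difference of all 41 genes. It read 5.45, 5.34 and 5.83 in Delta9 and 5.43, 5.14 and 5.07 in WT. Delta9 replicate 3 stood apart, and WT replicate 1 lay above Delta9 replicate 2. The difference was 0.33 (SE 0.18, adjusted p 0.57), and 0.18 (SE 0.17) without Delta9 replicate 3. Chek1, the checkpoint kinase downstream of Atr, differed by 0.14 (SE 0.22). The kinases Atm and Atr themselves differed by 0.04 (SE 0.15) and -0.11 (SE 0.17). Rad50 and Nbn, partners in the complex that binds broken ends, differed by 0.02 (SE 0.13) and 0.16 (SE 0.17). Mdc1, the adaptor that binds the phosphorylated histone at breaks, differed by -0.22 (SE 0.21).

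Trp53bp1, whose protein steers breaks towards end joining, had a smaller difference. It read 6.97, 6.99 and 6.86 in Delta9 and 6.94, 6.95 and 7.21 in WT. The values overlapped throughout except for the high WT replicate 3, and the difference was -0.09 (SE 0.14, interval -0.42 to 0.24).

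In homologous recombination 8 of 10 genes were higher and 2 lower, with a median of 0.09. Brca1, which promotes the resection of broken ends, read 5.31, 5.28 and 4.71 in Delta9 and 4.85, 4.97 and 4.75 in WT. Delta9 replicates 1 and 2 were above all WT samples and Delta9 replicate 3 was below all of them. The difference was 0.24 (SE 0.19, adjusted p 0.69). Rad54l, a motor protein of strand exchange, had nearly the same order. It read 4.71, 4.91 and 4.18 in Delta9 and 4.46, 4.48 and 4.16 in WT, with a difference of 0.23 (SE 0.21). Delta9 replicate 3 was here level with the lowest WT sample.

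The other recombination genes had smaller differences. Brca2, a tumour suppressor of recombination, read 5.59, 5.76 and 5.87 in Delta9 and 5.60, 5.57 and 5.79 in WT. These values interleaved, with a difference of 0.08 (SE 0.14, interval -0.25 to 0.42). Palb2, the bridge between Brca1 and Brca2, differed by 0.01 (SE 0.19). Rad51c, Rad51d and Xrcc3, which act in strand exchange, differed by 0.10 (SE 0.16), 0.00 (SE 0.16) and -0.07 (SE 0.11). Rad52, an annealing protein, differed by 0.09 (SE 0.25), and the RecQ helicase Wrn, whose loss causes a human progeria, by -0.13 (SE 0.14).

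The promoters of 4 recombination genes are shown because Brca1, Rad54l and Blm had the largest differences of this pathway and Brca2 was the recombination gene with an E2F-type match. Each line gives the 250 bases before the annotated start of transcription, 5′ to 3′ on the gene's strand, from RefSeq on GRCm38.p6. Rad54l has 2 listed starts, and the first is shown. The capitals mark the letters CCAAT, or ATTGG on the other strand, in Brca1 (chr11:101551956-101552205, minus strand), Rad54l (chr4:116123691-116123940, minus strand) and Blm (chr7:80534999-80535248, minus strand). In Brca2 (chr5:150522371-150522620, plus strand) they mark an E2F-type match on the other strand.
Brca1: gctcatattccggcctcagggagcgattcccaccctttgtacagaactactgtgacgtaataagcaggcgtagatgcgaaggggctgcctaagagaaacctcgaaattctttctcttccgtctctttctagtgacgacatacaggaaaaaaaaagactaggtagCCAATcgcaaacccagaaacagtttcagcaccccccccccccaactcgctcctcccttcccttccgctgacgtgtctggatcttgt
Rad54l: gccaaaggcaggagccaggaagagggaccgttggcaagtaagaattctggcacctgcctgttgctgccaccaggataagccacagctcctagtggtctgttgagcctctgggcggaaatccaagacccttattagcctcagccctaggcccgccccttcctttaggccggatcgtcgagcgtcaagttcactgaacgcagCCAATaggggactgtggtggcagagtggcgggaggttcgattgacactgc
Blm: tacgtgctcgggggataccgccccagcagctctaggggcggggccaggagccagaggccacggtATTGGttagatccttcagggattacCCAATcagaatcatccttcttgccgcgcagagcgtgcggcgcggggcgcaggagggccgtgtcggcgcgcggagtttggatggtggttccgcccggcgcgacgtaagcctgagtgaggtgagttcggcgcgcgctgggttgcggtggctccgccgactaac
Brca2: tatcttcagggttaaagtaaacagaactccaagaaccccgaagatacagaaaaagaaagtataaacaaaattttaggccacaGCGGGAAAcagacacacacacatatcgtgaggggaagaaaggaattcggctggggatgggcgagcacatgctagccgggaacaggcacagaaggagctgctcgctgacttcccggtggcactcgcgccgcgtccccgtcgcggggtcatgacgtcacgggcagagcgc
CCAAT, the core of the box bound by NF-Y, began 86 bases before the start in Brca1 and 50 in Rad54l, and Blm held 2 matches, 186 and 161 bases before it.

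Promoters were listed for 33 of the 41 repair genes, 38 promoters in all. CCAAT on either strand was found in 18 of the 38, or 47.4%, against 33.8% of all 32851 promoters of that length. An E2F-type site, searched as TTTCCCGC, TTTCGCGC, TTTGCCGC or TTTGGCGC on both strands, was found in 4 of the 38, or 10.5%, against 1.86% of all. Those 4 belonged to Brca2, Chek2, Mdc1 and Xrcc6. TTTGAA, the core of the CHR element of late cell cycle genes, was found in 1, that of Ercc5, or 2.63% against 16%. For comparison, E2F-type letters were in 30.8% of 26 promoters of S-phase and replication genes, and TTTGAA in 34.8% of 23 promoters of mitosis genes. CCAAT was in 69.2% of the former and 82.6% of the latter. The repair genes listed below as transcribed mostly in S phase had 11 promoters. CCAAT was in 45.5% of these and an E2F-type site in 9.09%. These are letter matches, not sites shown to be bound. The 3 motifs do not contain one another.

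In end joining 4 of 5 genes were lower and 1 higher, with a median of -0.05. Prkdc, the kinase that Ku recruits to broken ends, had the largest negative difference of the 41. It read 4.71, 4.89 and 4.72 in Delta9 and 4.77, 5.10 and 5.41 in WT. WT replicate 1 lay among the Delta9 values and WT replicate 3 was the highest. The difference was -0.32 (SE 0.19, interval -0.76 to 0.12, adjusted p 0.58). It was -0.48 (SE 0.17, unadjusted p 0.0285, adjusted p 0.38) without WT replicate 1, where 11.2% of all genes had an unadjusted p under 0.05, and -0.16 (SE 0.17) without WT replicate 3, so the size depended on which WT sample was kept.

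The Ku subunits Xrcc5 and Xrcc6, which clasp the broken ends, varied widely within the groups. Xrcc5 read 4.80, 5.28 and 4.94 in Delta9 and 4.59, 4.98 and 5.74 in WT. The lowest and the highest value were both in WT, and its pooled SD of 0.45 was the largest of the 41. The difference was -0.10 (SE 0.30), and 0.22 (SE 0.21) without WT replicate 3. Xrcc6 read 5.78, 5.98 and 5.49 in Delta9 and 5.49, 5.90 and 5.73 in WT, an even overlap with a difference of 0.04 (SE 0.18). Xrcc4 and Lig4, which together seal the ends, differed by -0.05 (SE 0.20) and -0.03 (SE 0.15).

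In base excision and single-strand break repair, 3 of 5 genes were higher, with a median of 0.12. Lig1, the ligase that joins Okazaki fragments and long repair patches, read 7.34, 7.43 and 6.70 in Delta9 and 6.75, 7.21 and 6.87 in WT. As with Brca1, Delta9 replicates 1 and 2 were the highest and Delta9 replicate 3 the lowest, and the difference was 0.21 (SE 0.23, adjusted p 0.78). Lig3, the ligase that works with Xrcc1, differed by 0.12 (SE 0.21). The scaffold Xrcc1 differed by -0.08 (SE 0.14). Parp2, a polymerase related to Parp1, differed by -0.00 (SE 0.15).

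The mismatch repair genes were Msh6, which recognises mispaired bases, and Pms2, which nicks the strand to be replaced. Msh6 read 6.36, 6.41 and 5.77 in Delta9 and 5.76, 5.92 and 6.33 in WT. Both groups spanned nearly the same range, with a difference of 0.18 (SE 0.23, interval -0.37 to 0.72). It was 0.0556 without WT replicate 1, 0.0621 without Delta9 replicate 2, 0.0869 without Delta9 replicate 1, 0.38 without Delta9 replicate 3 and 0.34 without WT replicate 3. Pms2 differed by 0.01 (SE 0.14).

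Of the nucleotide excision repair genes 3 were higher and 4 lower, with a median of -0.01, and for 7 of 7 the interval lay inside a 1.5-fold change. Ercc1, which with Ercc4 forms the nuclease that cuts the damaged strand on its 5′ side, read 7.74, 7.60 and 7.26 in Delta9 and 7.48, 7.50 and 7.65 in WT. The Delta9 values enclosed the WT values, and the difference was -0.01 (SE 0.16). A dimmer Ercc1 probe set, 1441838_at, was lower in 3 of 3 Delta9 samples. Its difference of -0.33 (SE 0.15) did not pass (limma, adjusted p 0.57 over all probe sets). The remaining Ercc1 probe sets, 1417328_at and 1445266_at, differed by 0.01 and 0.09. Ercc4 differed by -0.02 (SE 0.12). The nuclease of the 3′ side, Ercc5, differed by 0.14 (SE 0.16). The helicases Ercc2 and Ercc3 of transcription factor TFIIH differed by 0.01 (SE 0.12) and 0.08 (SE 0.14), and Xpa, which verifies the lesion, by -0.06 (SE 0.17). Ercc2 had the smallest pooled SD of the 41, 0.05.

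Of the Fanconi anaemia genes, Fancc has been described. The core complex subunit Fanca differed by 0.05 (SE 0.22). Fancd2 and Fanci, the clamp that the core complex marks with ubiquitin at a crosslink, differed by 0.07 (SE 0.17) and -0.04 (SE 0.17). The median of the 4 genes was 0.00.

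**Figure D2:**
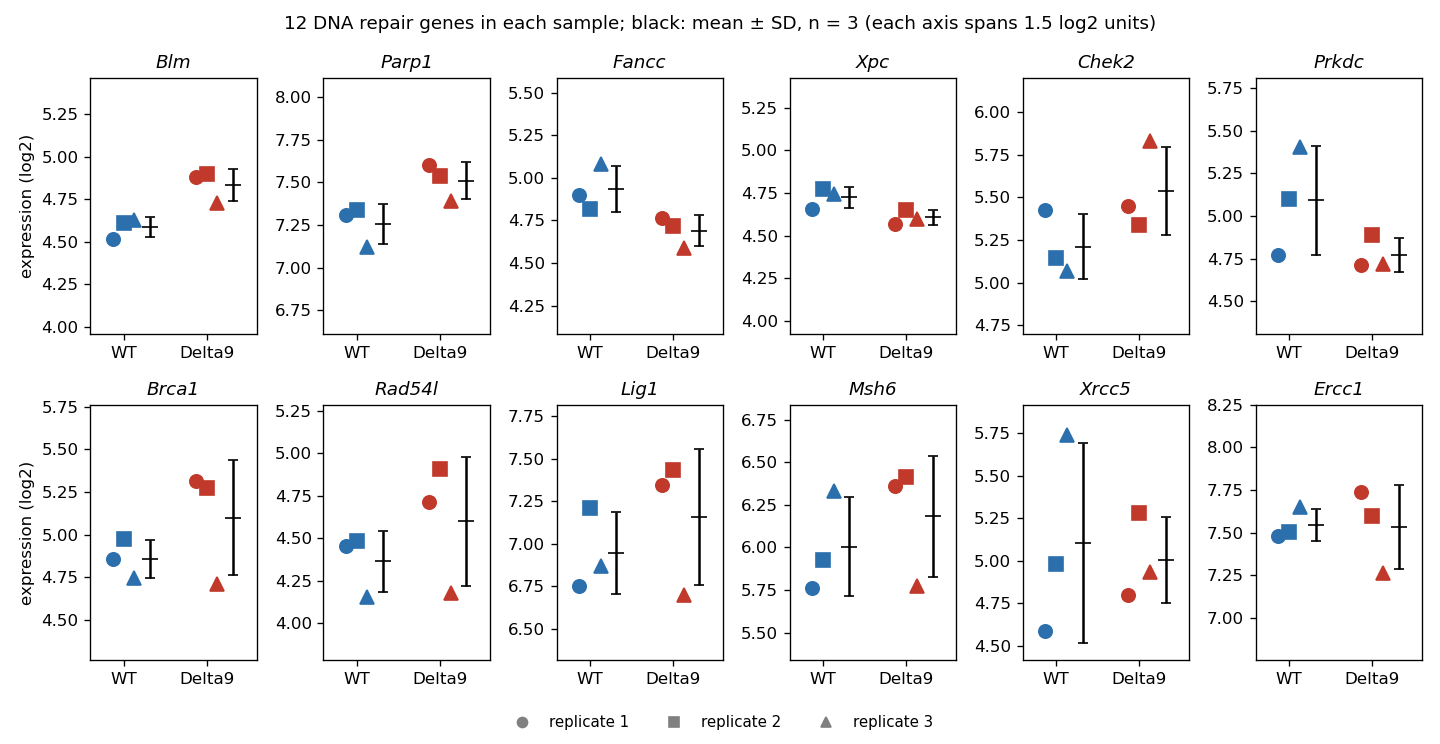
Expression (log2, vertical axis) of 12 repair genes in each WT and Delta9 sample; symbols give the replicate number, and black bars the mean ± SD (n = 3). The groups are separate for Blm, Parp1, Fancc and Xpc, and overlap for the other 8. Delta9 replicate 3 stands below the other Delta9 samples for Brca1, Rad54l, Lig1, Msh6, Ercc1, Blm, Parp1 and Fancc.

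The larger variation lay between samples of one group. For 11 of the 41 genes both Delta9 replicates 1 and 2 were above the other 4 samples, and for 13 both Delta9 replicate 3 and WT replicate 1 were below the other 4. Delta9 replicate 3 held the lowest value of 13 genes, WT replicate 1 of 10, and WT replicate 3 the highest of 11. The same counts were not made over all genes, so whether they are particular to repair genes was not tested. The median range over the 6 samples was 0.48 log2, close to the 0.50 of all genes.

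**Figure D3:**
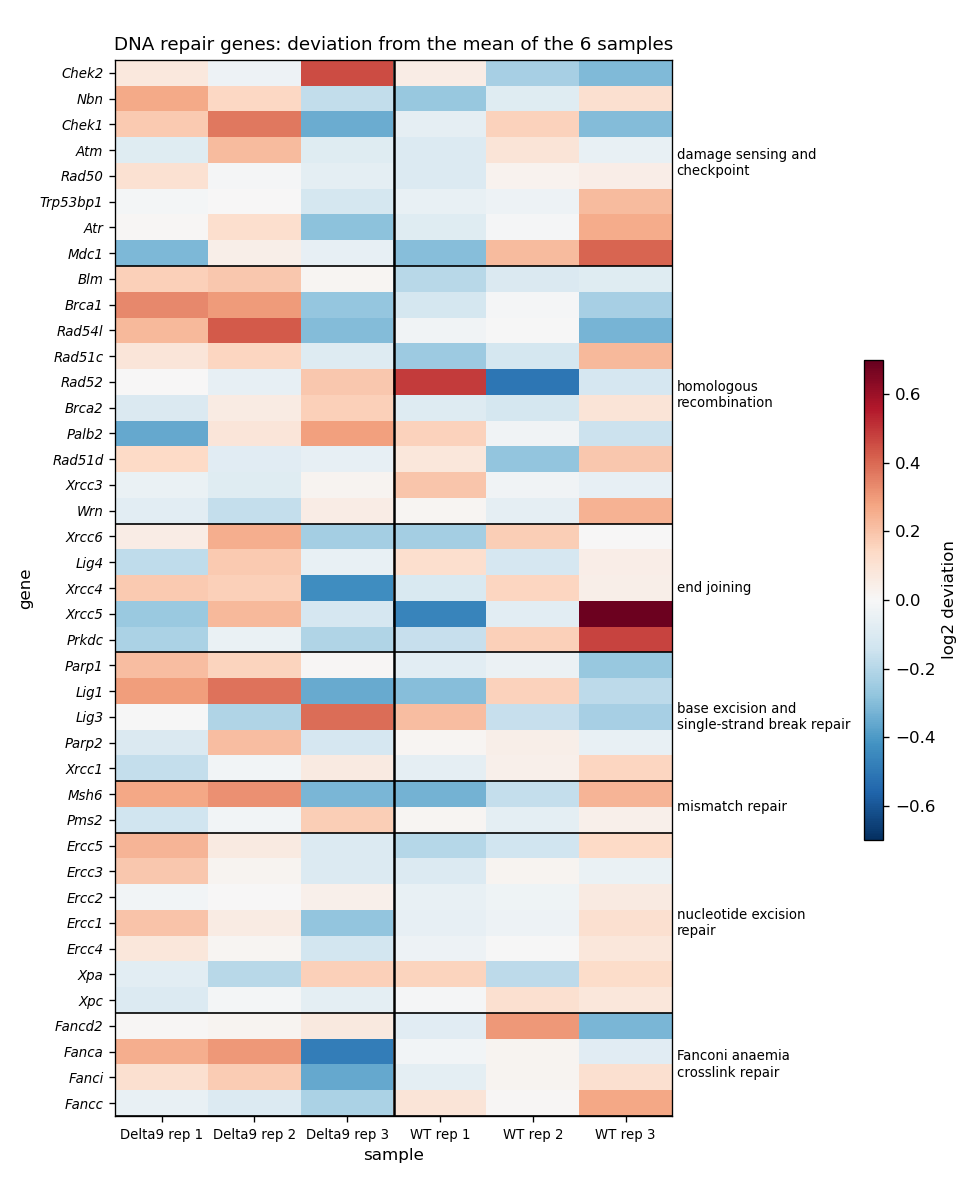
Deviation of each of the 41 repair genes (rows, by pathway) from its mean over the 6 samples (columns; colour in log2 units, red high and blue low). Delta9 replicate 3 and WT replicate 1 hold the lowest values of 13 and 10 genes, and WT replicate 3 the highest of 11. These counts were not made over all genes.

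On average, the repair genes listed as transcribed mostly in S phase had much the same order of samples. This list holds 9 of the 41: Brca1, Brca2, Rad54l, Blm, Chek1, Fancd2, Fanci, Lig1 and Msh6. Not every gene had that order: Brca2 was highest in Delta9 replicate 3 (5.87) and Fancd2 in WT replicate 2 (3.95). 8 of the 9 were higher in Delta9, with a median difference of 0.18. The other 32 repair genes split into 16 higher and 16 lower, with a median of 0.00. The difference between these parts was not tested, and the list of 9 was chosen with earlier results of these data known. The median of the 9 depended on single samples: it was 0.0757 with 7 of 9 higher without Delta9 replicate 2, 0.12 without WT replicate 1 and 0.34 without Delta9 replicate 3. In 6 of the 9, namely Blm, Brca1, Chek1, Lig1, Msh6 and Rad54l, Delta9 replicates 1 and 2 were above all other samples, as in 5 of the 32. Delta9 replicate 3 and WT replicate 1 were both below the other 4 samples in 3 of the 9 and in 10 of the 32. The mean of the 9, relative to the 6-sample mean, was 0.17, 0.25 and -0.19 in Delta9 and -0.14, 0.03 and -0.11 in WT. Delta9 replicate 3 was thus the lowest of the 6 samples, and Delta9 replicates 1 and 2 the highest.

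Replication and mitosis genes were also highest in Delta9 replicates 1 and 2 and lowest in Delta9 replicate 3 and WT replicate 1. The 28 S-phase and replication genes averaged 0.25, 0.46 and -0.28 in Delta9 and -0.28, 0.005 and -0.15 in WT, with a median difference of 0.31 and 25 of 28 higher. That median was 0.17 with 21 of 28 higher without Delta9 replicate 2, and 0.50 without Delta9 replicate 3. The 27 mitosis genes averaged 0.33, 0.57 and -0.48 in Delta9 and -0.50, 0.10 and -0.01 in WT, with a median of 0.23 and 27 of 27 higher. The median varied with single samples: it was 0.0484 with 15 of 27 higher without Delta9 replicate 2, 0.0834 with 19 of 27 without WT replicate 1, and 0.61 with 27 of 27 without Delta9 replicate 3. Without WT replicate 2 it was 0.40. None of either list passed over all genes (limma). At an unadjusted p under 0.05 were 3 of 28, or 10.7%, and 1 of 27, or 3.7%, against 10.6% of all genes. These counts depended on single samples. Without Delta9 replicate 3 they were 17 of 28 and 17 of 27, against 13.7% of all genes. Without Delta9 replicate 2 they were 0 of 28 and 1 of 27, against 1511 of 18193 genes. After adjustment none of either list passed in these fits. Pcna, the replication clamp, differed by 0.58 (SE 0.18), and Cenpa, the centromeric histone, by 0.66 (SE 0.18). The part of these genes in the pattern of the repair genes was not tested.

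**Figure D4:**
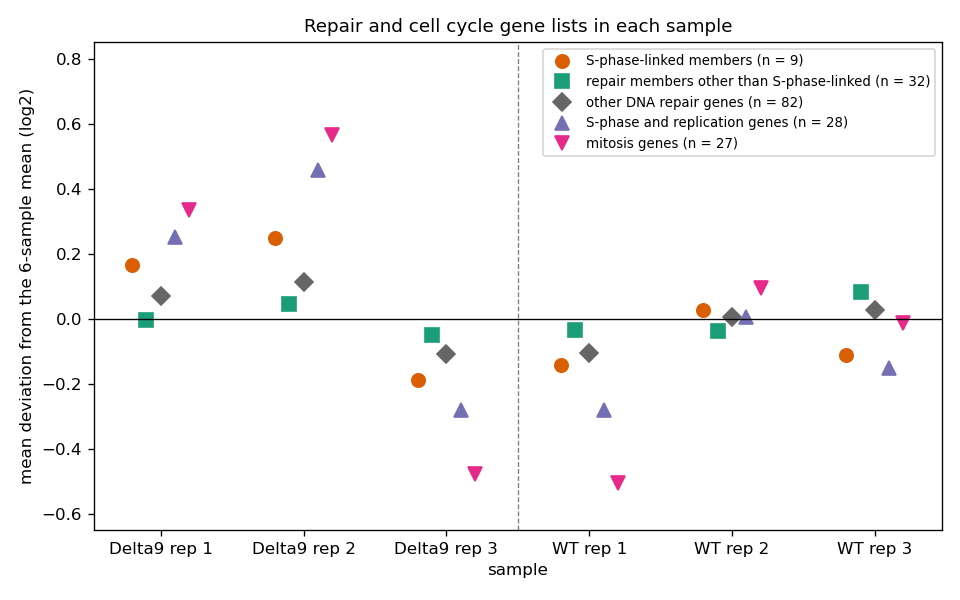
Mean deviation from the 6-sample mean (log2, vertical axis) of 5 gene lists in each sample. Delta9 replicates 1 and 2 are highest and Delta9 replicate 3 and WT replicate 1 lowest for mitosis genes (0.33, 0.57, -0.48 and -0.50), with the S-phase-linked repair genes in nearly that order at smaller size (0.17, 0.25, -0.19 and -0.14) and the other 32 repair genes near 0.

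Leaving out Delta9 replicate 3 raised the counts before correction, among the repair genes as over all genes. Without it, 3 of 41 reached an unadjusted p under 0.05, where 13.7% of all genes did: Brca1 with 0.44 (SE 0.15), Rad54l with 0.45 (SE 0.17) and Lig1 with 0.44 (SE 0.18). Their adjusted p was 0.29, 0.34 and 0.36, so none passed. Leaving out a different sample made them smaller: Brca1 was 0.14 without Delta9 replicate 1, and without Delta9 replicate 2 Rad54l was 0.0803 and Lig1 0.0758. With Delta9 replicate 3 left out, the median of the 9 S-phase-linked genes was 0.34, with 9 of 9 higher. That of the other 32 was 0.01. In that same fit the groups did not overlap for 14 of 41, against 34.6% of all genes. Without WT replicate 3, 0 of 41 had an unadjusted p under 0.05, where 7.69% of all genes did (limma), and the groups were separate for 7 of 41, against 25.2%. Without WT replicate 1 the groups were separate for 8 of 41, against 30.5%.

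Delta9 replicate 3 and WT replicate 1 were also the arrays with the lowest signal of the poly-A spike-in transcripts, which are added to RNA before labelling, at 4.87 and 4.55 log2 against 5.25 to 5.67. Within the other 4 arrays, 4 of 41 repair genes had an unadjusted p under 0.05, where 16% of all genes did: Brca1 with 0.44, Rad54l with 0.49, Parp1 with 0.34 and Prkdc with -0.45. Their adjusted p was 0.279 to 0.305, and the groups were separate for 19 of 41, against 49.1% of all genes. With the split as a block 1 did, where 18.1% of all genes did, namely Chek2 with 0.33 (SE 0.11, adjusted p 0.21). With weights that count uneven arrays less 1 did, where 20% of all genes did, namely Blm with 0.27 (adjusted p 0.20). After adjustment none passed in these fits, where 0.335% to 0.819% of all genes did.

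The labels and cell types were checked on other genes. Lmna itself read 7.07, 6.95 and 6.11 in Delta9 and 8.35, 8.89 and 8.78 in WT, a difference of -1.96 (SE 0.28, adjusted p 0.090), and its 5 probe sets disagreed in size, from -3.42 to 0.22. The 12 fibroblast markers were all above the median signal of the table, with summed signals from 14.9 in Delta9 to 15.2 in WT (log2); each Delta9 sum was below each WT sum and 11 of 12 markers were lower. The 19 macrophage markers ranged from 14.5 to 15.2 in Delta9 and from 12.5 to 14.6 in WT, 19 of 19 higher, with WT replicate 3 the lowest. Mast cell markers were near the bottom of the scale in all samples, at summed signals of 5.40 to 5.67. Keratinocyte markers summed to 6.63 to 6.99, endothelial markers to 6.69 to 7.83 and skeletal muscle markers to 7.94 to 9.42, with ranges that overlapped between the groups. No marker list was at 0, since the array gives no true zero. The difference between the 3′ and 5′ beta-actin control probe sets, a measure of RNA quality, was 0.51 to 0.84 in Delta9 and 0.82 to 1.41 in WT, highest in WT replicate 3, and 18S ribosomal RNA was lowest there, at 7.86 against 9.21 to 10.4. In such mixed RNA, fewer cells of a type and less RNA per cell cannot be told apart. 18S was highest in Delta9 replicate 3 and WT replicate 1, at 10.4 and 10.1, and so was the 3′ to 5′ difference of Gapdh, at 0.57 and 0.57 against 0.23 to 0.51 in the other 4. These are the samples lowest for the cell cycle genes. The part of these measures in the differences above was not tested. Without WT replicate 3, Blm differed by 0.27, Parp1 by 0.19, Fancc by -0.17 and Xpc by -0.11. Groups that are separate over all samples stay separate when a sample is left out, so their separation there is no check.

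The wider repair machinery was read on a list of 92 other repair genes, of which 82 were measured. 51 were higher and 31 lower, with a median of 0.05. None passed over all genes (limma, lowest adjusted p 0.21), and 3 had an unadjusted p under 0.05, or 3.66% against 10.6% of all genes. Without Delta9 replicate 3 this count was 14 of 82, a larger share than the 13.7% of all genes. Counting single probe sets of the 41 genes instead, 4 of 96 had an unadjusted p under 0.05, against 8.94% of all probe sets. The groups did not overlap for 7 of 82, or 8.54%, against 17.3%.

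Fancf, an adaptor of the Fanconi anaemia core complex, had the largest difference of any repair gene read here. It was 4.84, 4.91 and 4.81 in Delta9 and 5.62, 5.36 and 5.65 in WT. The gap between the groups was wider than the spread within either, and the difference was -0.69 (SE 0.14, interval -1.02 to -0.36, unadjusted p 0.0016, adjusted p 0.21). Leaving out any 1 sample gave -0.78 to -0.64. The 2 other Fancf probe sets differed by -0.07 and -0.24, so the probe sets disagreed in size.

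Gen1, a nuclease that cuts Holliday junctions, was dim, at 3.19, 3.41 and 2.90 in Delta9 and 2.70, 2.59 and 2.74 in WT. Its groups were separate and the difference was 0.49 (SE 0.14, adjusted p 0.30). Parp3, a polymerase that acts with end joining, read 7.25, 6.88 and 7.26 in Delta9 and 7.46, 7.45 and 7.98 in WT, with a difference of -0.50 (SE 0.20, adjusted p 0.44). Higher without reaching an unadjusted p of 0.05 were Mre11a, the nuclease partner of Rad50 and Nbn, with 0.42 (SE 0.19), the flap nuclease Fen1 with 0.29 (SE 0.14) and the cohesin-like Smc5 with 0.52 (SE 0.29). Lower were the lesion-bypass polymerase Polh with -0.32 (SE 0.17) and Rad18, the ligase that marks Pcna for bypass, with -0.21 (SE 0.13). Other probe sets of Mre11a, Polh and Rad18 had the opposite sign.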

How the data were processed

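The deposited table holds log2 probe set values for 45101 probe sets on 6 arrays; that they are log2 was inferred from their range. How the authors summarised and normalized them is not stated in the labels or the file headers. RNA was isolated with Trizol and biotin-labelled, per the labels' protocols. The values were used as deposited, with no filter on dim genes; 64 control probe sets were left out, and 34945 probe sets had 1 gene symbol in the platform annotation. Delta9 was compared with WT in limma 3.58.1 (R 4.3.3; lmFit, eBayes with trend), with Benjamini-Hochberg adjustment over 18193 genes, after a test on simulated data. With 3 arrays a group, precision is limited. Values in every sample are given for the repair gene of lowest p and of highest mean in each pathway and for any at an unadjusted p under 0.05. Of the other repair genes, the 4 of lowest p in each direction are named. The members and lists were chosen with earlier results of these data known. Brca1, Rad54l, Lig1 and Xrcc5 were given sample values after their values were seen. Promoters were RefSeq's (GRCm38.p6). Alternatives were quantile normalization, a filter on dim genes, other choices of probe set, other variance models, array weights, the replicate number or the spike-in split as a block, and leaving out samples. Other marker and cell cycle genes are given as lists. Figures used matplotlib 3.10.9.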

Additional observations from a re-analysis of the deposited data

How the results depend on the processing

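None of the 41 repair genes passed the adjusted threshold in any of the 16 alternative fits, which included each sample left out in turn. The count at an unadjusted p under 0.05 was 0 in the reported fit. It was 1 with array weights, where 20% of all genes had such a p, and 1 with the spike-in split as a block, where 18.1% had. It was 1 with no variance trend, where 1981 of 18193 genes had. When each gene was the mean over its probe sets it was 2, where 1871 had. In only the 4 arrays with more spike-in signal it was 4, where 16% of all genes had. With single samples left out it was 0 to 3, where 1399 to 2484 of all genes had. The groups did not overlap for 4 of the 41 in the reported fit, where 17.3% of all genes were separate. In those 4 arrays they were separate for 19, where 49.1% of all genes were. Taking the mean over probe sets gave 6, where 3085 of all genes were separate. Dropping 1 sample at a time gave between 4 and 14, where 4454 to 6292 of all genes were. With fewer samples fewer genes overlap by construction. The median of the repair genes ran from -0.01 to 0.05 with single samples left out, and that of the other repair genes from -0.01 to 0.09. The count of the 82 other repair genes at an unadjusted p under 0.05 was 3, where 1928 of 18193 genes had such a p. It was 14 without Delta9 replicate 3, where 2484 had. With array weights it was 8, with the spike-in split as a block 9, and in the 4 arrays with more spike-in signal 10. Of all genes 20%, 18.1% and 16% had such a p in these 3 fits.

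The numbers 1 to 3 did not pair the samples: the correlations of same-numbered deviations were -0.40, 0.17 and -0.43, and Delta9 replicate 3 correlated best with WT replicate 1 (0.59). With the replicate block 0 of 41 repair genes passed, 0 had an unadjusted p under 0.05, and the count over all genes went from 11 to 0.

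Lmna passed with array weights (-1.90), the mean of its probe sets (-1.55), the spike-in split as a block (-1.96), within the 4 arrays (-1.83) and on probe set 1457670_s_at (-3.42); leaving out 1 sample gave -2.14 to -1.66, and it passed without Delta9 replicate 3. It had the opposite sign on 1452212_at (0.22). Differences near 0 changed sign. Ercc1 was 0.0922 with array weights, 0.0908 within the 4 arrays, 0.0141 without _x_at and _s_at probe sets (which leaves 1417328_at, 0.0141) and 0.0925 on 1445266_at, and ran from -0.12 to 0.12 with single samples left out. Xrcc5 was 0.0357 with array weights and ran from -0.36 to 0.22, and Xrcc6 ran from -0.0719 to 0.17. Brca2 was -0.0035 within the 4 arrays. On other probe sets Trp53bp1 was 0.0433, Brca1 -0.0668, Rad54l -0.0398, Mre11a -0.0536, Polh 0.11 and Rad18 0.12 and 0.23. The causes were not tested. Dim signals, such as those of Xrcc3, Fancd2 and Gen1, limit what a difference can show.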

Other observations

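Genes that p53 induces after DNA damage were read as a neighbouring group. This group is not separate: it shares Xpc with the 41 repair genes and Polk and Ddb2 with the other repair genes. Of 21 measured, 16 were higher and 5 lower in Delta9, with a median of 0.21; none passed over all genes (limma), and 1 had an unadjusted p under 0.05, or 4.76% against 10.6% of all genes. Btg2, an antiproliferative p53 target, read 8.02, 7.84 and 8.57 in Delta9 and 7.94, 7.36 and 6.68 in WT, a difference of 0.82 (SE 0.34, adjusted p 0.46). Gadd45a, a damage-induced stress gene, read 7.001, 7.21 and 6.51 in Delta9 and 6.08, 6.63 and 6.42 in WT, a difference of 0.53 (SE 0.23, adjusted p 0.47). Zmat3, an RNA-binding p53 target, differed by 0.46 (SE 0.29). The groups overlapped for each of these genes. The list was 0.38, 0.20 and -0.26 in Delta9 and -0.26, -0.17 and 0.11 in WT relative to the 6-sample mean, so Delta9 replicate 3 and WT replicate 1 were again lowest.

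Dimmer probe sets of some repair genes had differences that did not pass. Of 96 probe sets for the 41 genes, 4 had an unadjusted p under 0.05, or 4.17% against 8.94% of all probe sets, and none passed over all probe sets (limma, lowest adjusted p 0.43). They belonged to Chek1, with 0.42 on 1420032_at, Rad50, with -0.27 on 1425939_at, Fancc, with -0.38 on 1447632_at, and Brca1, with 0.20 on 1424630_a_at. Those of Chek1 and Fancc were larger in size than any difference on the 41 probe sets used, which ran from -0.32 to 0.33. Of the 55 probe sets that were not the one used, 18 had the opposite sign.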
